A study of Homo sapiens with 6 samples.

Results

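The 4 ErbB receptor genes (EGFR, ERBB2, ERBB3 and ERBB4) and 5 genes grouped as negative regulators (ERRFI1, LRIG1, LRIG3, CBL and CBLB) were followed in Hs578T cells after knockdown of CCN3. They were chosen by gene symbol from the deposited count table, where all 9 of 9 were found among 46427 genes. Hs578T is a triple-negative breast cancer line of mesenchymal type, and CCN3 encodes a secreted matricellular protein. The study used RNA-seq of CCN3 knockdown cells to look for genes through which CCN3 could act on EGFR. Both groups were Hs578T lines made by retroviral transduction of a pSUPER vector and puromycin selection, and both were grown in DMEM with fetal bovine serum. The 3 shCTRL libraries came from cells with control shRNA, and the 3 shCCN3 libraries came from cells with CCN3 shRNA #2, labelled CCN3 KD. One shRNA and one selected line stand for each group, so an effect of the knockdown and a difference between the selected lines cannot be told apart. The series describes the replicates of each group as independent, and p-values measure the spread between them.

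ErbB receptors are receptor tyrosine kinases that pair with each other when a ligand of the EGF family binds, and EGFR is often abundant in triple-negative breast cancer. ERBB2 binds no known ligand and acts as a partner, ERBB3 has a weak kinase and ERBB4 is a neuregulin receptor. ERRFI1 (MIG6) is an inhibitor that binds the EGFR kinase domain, LRIG1 is a transmembrane protein that promotes receptor degradation, and CBL and CBLB are ubiquitin ligases that mark active receptors for endocytic sorting.

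CPM is the count of a gene scaled to its library total, with TMM factors. CCN3 itself was 103, 102 and 98.1 CPM in shCTRL and 47.4, 47.2 and 46.5 CPM in shCCN3 libraries, and the shRNA target thus lay lower in each of the 3 shCCN3 libraries. Library totals lay between 56159110 and 68393177 counts, and 3 counts corresponded to 0.0439 to 0.0534 CPM, which covers counting error only. VIM, FN1, SPARC, CD44, CDH2 and ZEB1 had 43.8 CPM or more in every library, and ESR1, CDH1, EPCAM and ALB stayed at 0.156 CPM or less. The epithelial keratins were expressed as well, KRT18 at 156 to 263 CPM, above ZEB1 at 43.8 to 61.5 CPM, and KRT8 at 13.5 to 21.3 CPM. PGR had a mean of 2.86 CPM in shCTRL and 3.8 CPM in shCCN3, PECAM1, an endothelial marker, had 3.57 and 3.43 CPM, and PTPRC, an immune marker, had 0.203 CPM or less. Between the groups CDH2 rose by 0.87 and KRT18 by 0.51 on the log2 scale, KRT8 fell by 0.52 and CD44 by 0.25, and GATA3 and FOXA1 did not pass the test at 3.84 CPM or less. shCCN3 replicate 2 stood apart, with a chi-square per degree of freedom of 34.7 and 42.5 against its group, while the other pairs of one group lay between 6.75 and 20.7. In that library the median deviation from the group mean was 0.092 (log2) for the shortest genes by exon length (4250 genes of up to 3.75 kb) and -0.092 for the longest (4248 genes above 6.54 kb). It was the lowest library of its group for all 8 members tested, 6 of which belong to the longest genes, and the part of exon length in their values was not tested.

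Sequences upstream of the start site are shown for EGFR, the receptor that fell, and for LRIG1 and LRIG3, paralogs of which only LRIG1 passed the test. They are the 250 bases before the RefSeq start on GRCh38.p14, written 5′ to 3′ on the strand of the gene, at chr7:55018767-55019016 (plus strand) for EGFR, chr3:66501122-66501371 (minus strand) for LRIG1 and chr12:58920505-58920754 (minus strand) for LRIG3. Capitals mark the motifs found on either strand, which are the GC box GGGCGG (read as CCGCCC on the other strand), the box CCAAT (read as ATTGG there) and the E-box CACGTG.
EGFR: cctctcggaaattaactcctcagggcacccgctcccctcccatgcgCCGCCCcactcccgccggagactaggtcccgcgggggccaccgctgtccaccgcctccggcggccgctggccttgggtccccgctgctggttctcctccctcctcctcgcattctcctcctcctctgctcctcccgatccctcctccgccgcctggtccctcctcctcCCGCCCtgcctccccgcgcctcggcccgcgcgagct
LRIG1: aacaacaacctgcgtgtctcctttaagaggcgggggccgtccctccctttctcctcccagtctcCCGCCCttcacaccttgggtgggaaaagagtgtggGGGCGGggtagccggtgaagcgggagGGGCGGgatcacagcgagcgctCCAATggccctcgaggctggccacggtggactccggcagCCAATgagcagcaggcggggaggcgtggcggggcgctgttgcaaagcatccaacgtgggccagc
LRIG3: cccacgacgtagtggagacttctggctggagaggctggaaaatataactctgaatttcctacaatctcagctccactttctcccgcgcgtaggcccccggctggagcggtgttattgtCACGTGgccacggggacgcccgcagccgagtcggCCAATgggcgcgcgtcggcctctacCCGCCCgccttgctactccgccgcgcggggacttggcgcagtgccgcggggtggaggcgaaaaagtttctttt
In the window of 300 bases that runs 50 bases past the start, EGFR held 3 GC boxes, at -204, -36 and 44 from the start, and no CCAAT box. LRIG1 held 3 GC boxes, at -186, -151 and -125, and 2 CCAAT boxes, at -103 and -64. LRIG3 held 1 GC box at -73, 1 CCAAT box at -98 and 1 E-box at -132. Of 27305 RefSeq promoters of this length, 44.7% held the GC box, 35.7% the CCAAT box and 7.43% the E-box. The GC content was 75.3% for EGFR, 69.3% for LRIG1 and 63% for LRIG3, beside a median of 58.3% over all promoters. None of the 7 members with an entry held the AP-1 motif TGACTCA, found in 4.87% of all promoters, or the TCF/LEF motifs CTTTGAA or, with another last base, CTTTGAT, found in 6.94%, on either strand. LRIG1 has 4 listed starts, and its GENCODE start lies 142 bases upstream of the one used here. These are matches of letters, not binding sites. ERBB3 and CBL have no entry and no sequence is shown for them.

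**Figure D1:**
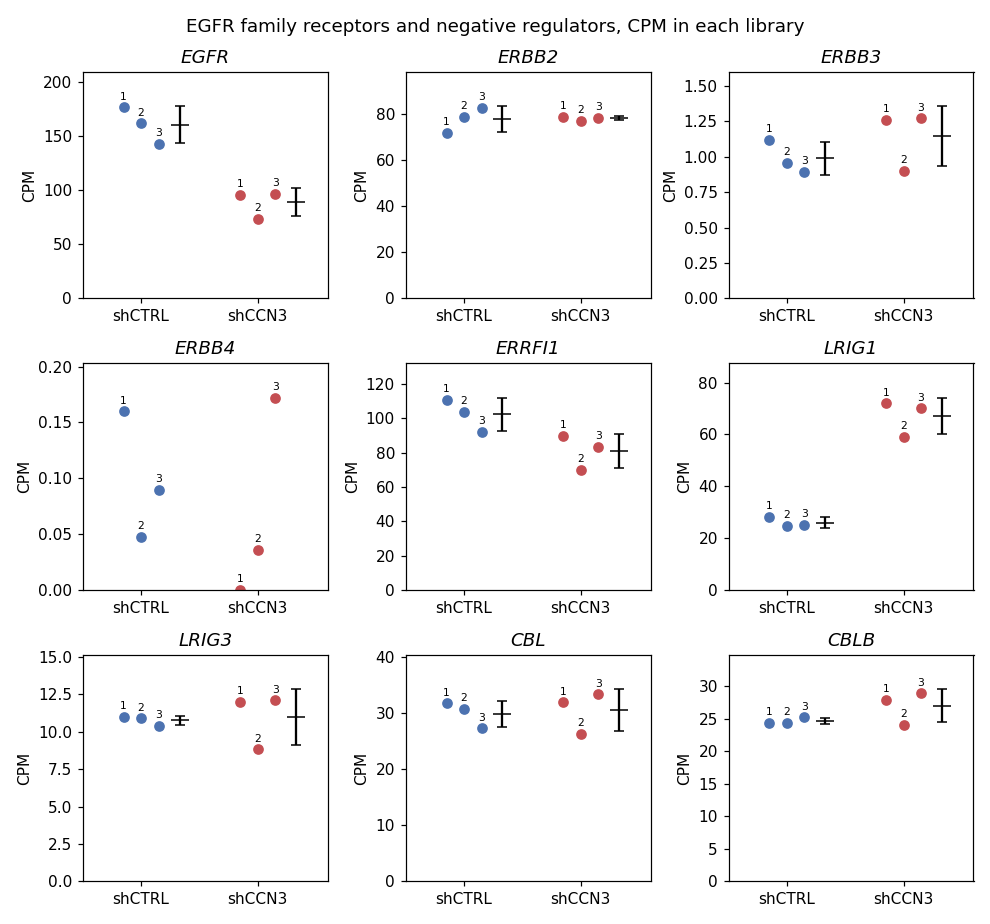
CPM (vertical axis from 0) of the 9 genes in each library, with numbered points for replicates and black marks for mean ± SD of 3 libraries, left out for ERBB4, whose counts lie near the detection limit. The groups do not overlap for EGFR, ERRFI1 and LRIG1, and replicate 2 is the lowest shCCN3 point for each gene but ERBB4.

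EGFR fell from 161 ± 16.8 to 89 ± 13.1 CPM and LRIG1 rose from 26 ± 1.95 to 67 ± 7.05 CPM (SD, n = 3 each). ERRFI1 fell less, from 102 ± 9.52 to 81 ± 10.1 CPM, and ERBB2 was 77.9 ± 5.49 and 78.2 ± 0.898 CPM. Of the 8 members tested, 1 was higher and 2 were lower in shCCN3 at an adjusted p under 0.05, beside 33.4% of the 17419 genes tested that passed in either direction, 16.2% higher and 17.3% lower. CPM did not overlap between the groups for 3 of the 8 members tested, against 46.3% of all genes tested. These shares are near those of all genes, so that the members as a group did not stand out. Their median log2 fold change was 0.03, against 0.008 for all genes. Because these are bulk samples, fewer cells that express a gene and less RNA per cell cannot be told apart.

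Among the receptors, EGFR was 177, 162 and 143 CPM in the shCTRL libraries and 96.1, 73.9 and 97 CPM in the shCCN3 libraries. Every shCCN3 library was below every shCTRL library, and shCCN3 replicate 2 was the lowest of all 6. The log2 fold change was -0.85 (standard error 0.115, 95% interval -1.11 to -0.59, edgeR quasi-likelihood test, adjusted p = 0.000465). ERBB2, the preferred partner of the other receptors, was 72, 78.8 and 82.8 CPM in shCTRL and 78.9, 77.2 and 78.5 CPM in shCCN3. The groups overlapped, and the log2 fold change was 0.01 (95% interval -0.14 to 0.16, edgeR quasi-likelihood test, adjusted p = 0.952). ERBB3 was 1.12, 0.955 and 0.894 CPM in shCTRL and 1.26, 0.9 and 1.27 CPM in shCCN3. The difference of 0.21 on the log2 scale had an interval of -0.28 to 0.70 and did not pass the test (edgeR quasi-likelihood test, adjusted p = 0.502). ERBB4 had 11, 3 and 6 counts in shCTRL and 0, 2 and 11 counts in shCCN3, was below the filter on low counts and was not tested.

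Levels of different genes are compared per kilobase of exon, counting all annotated exons of a gene, as CPM per kb. In shCTRL cells EGFR was the most abundant receptor at 12.8 ± 1.34 CPM per kb, followed by ERBB2 at 7.55 ± 0.532 (SD, n = 3), with no overlap between them. In shCCN3 cells EGFR was 7.11 ± 1.04 and ERBB2 7.58 ± 0.087 CPM per kb, and their libraries overlapped. As a share of the ErbB receptor counts per kb, a measure that does not depend on library scaling, EGFR made up 66.5%, 62.5% and 58.4% in shCTRL and 49.6%, 43.8% and 49.9% in shCCN3. The share fell in all 3 shCCN3 libraries, by 14.7 percentage points between the group means, with no overlap (two-sided p = 0.1 in an exact permutation test, which cannot go lower with 3 libraries against 3). Levels per kb and shares depend on the gene lengths used. The difference in share was -14.3 percentage points with no division by length and -14.3 with coding length. The log2 ratio of EGFR to ERBB2 counts was 1.30, 1.04 and 0.79 in shCTRL and 0.28, -0.06 and 0.30 in shCCN3, a difference of -0.86 (two-sided exact permutation p = 0.1). The median log2 fold change was -0.43 on chromosome 7, which holds EGFR, and 0.007 on chromosome 17, which holds ERBB2. The part of this difference in the share and the ratio was not tested. ERBB3 took 0.534% of the receptor counts per kb in shCTRL and 0.848% in shCCN3, and ERBB4 0.0852% or less in every library. A share also rises when another receptor falls, and the log2 fold change of ERBB3 itself, 0.21, did not pass the test.

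**Figure D2:**
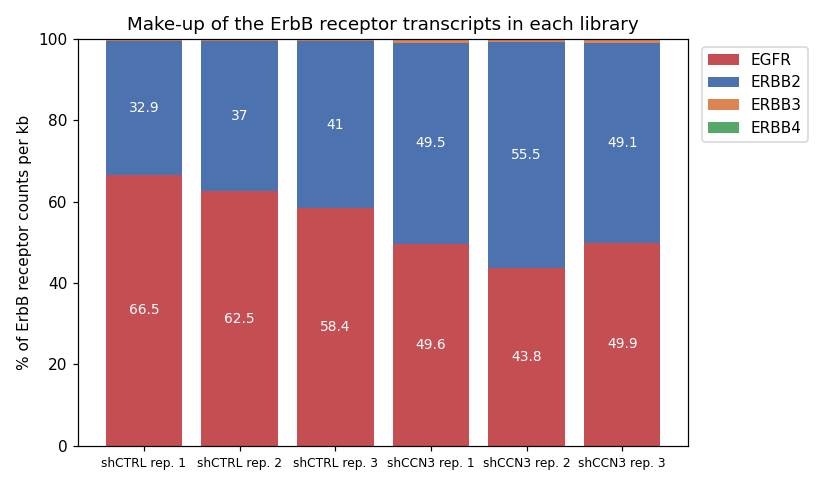
Share of each ErbB receptor in the summed counts per kilobase of the 4 receptors, as stacked bars in percent for each of the 6 libraries. EGFR lies between 58.4% and 66.5% in shCTRL and between 43.8% and 49.9% in shCCN3, and ERBB2 fills nearly all of the rest.

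Among the regulators, LRIG1 was 28.3, 24.7 and 25 CPM in shCTRL and 72, 59 and 70.1 CPM in shCCN3 libraries. All 3 shCCN3 libraries were above all 3 shCTRL libraries, a 2.58-fold higher mean. The log2 fold change was 1.37 (standard error 0.0927, 95% interval 1.16 to 1.58, edgeR quasi-likelihood test, adjusted p = 7.27e-06). LRIG3, its paralog, was 11, 10.9 and 10.4 CPM in shCTRL and 12, 8.84 and 12.1 CPM in shCCN3. The groups overlapped, with a log2 fold change of 0.03 (95% interval -0.25 to 0.30, edgeR quasi-likelihood test, adjusted p = 0.887). The LRIG1 to LRIG3 count ratio was 2.58, 2.27 and 2.40 in shCTRL and 6, 6.67 and 5.82 in shCCN3, a comparison chosen after the values were seen and not tested. LRIG2, the remaining paralog, was 16.2 ± 0.401 CPM in shCTRL and 13.4 ± 1.73 CPM in shCCN3 (SD, n = 3), with a log2 fold change of -0.28 that did not pass (edgeR quasi-likelihood test, adjusted p = 0.0611).

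ERRFI1 was 111, 104 and 92.1 CPM in shCTRL and 89.7, 69.9 and 83.3 CPM in shCCN3. The groups did not overlap, but the highest shCCN3 library lay close to the lowest shCTRL library. The log2 fold change was -0.34 (standard error 0.102, 95% interval -0.57 to -0.11, edgeR quasi-likelihood test, adjusted p = 0.0297). The call was lost without shCTRL replicate 1 (log2 fold change -0.28, adjusted p = 0.11 from the same test), without shCTRL replicate 2 (-0.32, adjusted p = 0.105) or without shCCN3 replicate 3 (-0.36, adjusted p = 0.0577). The EGFR to ERRFI1 count ratio was 1.59, 1.55 and 1.55 in shCTRL and 1.07, 1.06 and 1.16 in shCCN3, again chosen after the values were seen and not tested. Per kb ERRFI1 was the most abundant of the 9 genes in both groups, at 24.5 ± 2.28 CPM per kb in shCTRL and 19.3 ± 2.42 in shCCN3 (SD, n = 3).

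CBL was 31.7, 30.7 and 27.3 CPM in shCTRL and 31.9, 26.3 and 33.3 CPM in shCCN3, and CBLB was 24.4, 24.4 and 25.2 CPM in shCTRL and 27.9, 24.1 and 28.9 CPM in shCCN3. Both ubiquitin ligases overlapped between the groups. The log2 fold change was 0.03 for CBL (95% interval -0.20 to 0.26, edgeR quasi-likelihood test, adjusted p = 0.853) and 0.13 for CBLB (95% interval -0.05 to 0.31, adjusted p = 0.262). Without shCCN3 replicate 2, CBLB passed (log2 fold change 0.20, edgeR quasi-likelihood test, adjusted p = 0.0301). CBLC, the remaining ligase of the family, had 0 counts in all 6 libraries.

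In order of mean level per kb, the shCTRL cells had ERRFI1, EGFR, ERBB2, LRIG1, CBL, CBLB, LRIG3, ERBB3 and ERBB4. In the shCCN3 cells LRIG1, at 9.53 ± 1 CPM per kb (SD, n = 3) after 3.7 ± 0.278 in shCTRL, came second, above ERBB2 and EGFR. EGFR and ERBB2, CBL and CBLB, and CBLB and LRIG3 were neighbours in that order whose shCCN3 libraries overlapped. Both orders depend on exon length, which was 7.032 kb for LRIG1, 10.321 kb for ERBB2 and 12.521 kb for EGFR. Without division by length, the shCCN3 means were 89 CPM for EGFR, 78.2 for ERBB2 and 67 for LRIG1. In shCTRL, CBL at 29.9 CPM then lay above LRIG1 at 26. Coding length was 3351 bases for LRIG1, 3956 for ERBB2 and 4024 for EGFR. Divided by it, the shCCN3 mean of EGFR lay above that of LRIG1, and the libraries of these genes overlapped. The second place of LRIG1 thus rests on the exon length used. Counts of EGFR per count of LRIG1 were 6.25, 6.53 and 5.72 in shCTRL and 1.34, 1.25 and 1.38 in shCCN3, with no overlap, a ratio added after the values were seen and given with no test.

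Beside each member stand the values of its chromosome and neighbours, as a description. EGFR (chr7:55019021-55211628, plus strand, GENCODE 29 on GRCh38) lies among 821 tested genes of chromosome 7 whose median log2 fold change was -0.43, with 84.9% lower in shCCN3. The 24 tested genes nearest to it, 12 on each side, had a median of -0.30, and 17 were lower. EGFR differed by -0.55 from that median and by -0.42 from the chromosome 7 median on the log2 scale. Of the genes of chromosome 7, 14.4% had a lower value than EGFR. On the chromosomes of the other tested members, 44.7% to 61.5% of the genes were lower in shCCN3. The nearest 2 tested genes on each side, named in addition to the rule, differed among themselves. After EGFR, VOPP1 fell by 0.80 (edgeR quasi-likelihood test, adjusted p = 6.65e-06) and LANCL2 by 0.49 on the log2 scale (adjusted p = 0.000736). Before it, SEC61G at -0.31 (adjusted p = 0.103) and HAUS6P3 at -0.11 (adjusted p = 0.751) on the same scale did not pass the test. The part of the chromosome 7 shift in the EGFR value was not tested. The 24 neighbours of ERRFI1 (chr1:8004404-8026308, minus strand) had a median of -0.31, of which 19 were lower, and ERRFI1 differed from it by -0.03. The median of chromosome 1 was -0.13, with 61.5% of its tested genes lower. LRIG1 (chr3:66378797-66501263, minus strand) had neighbours with a median of 0.08, lay 1.29 above it, and was exceeded by 3.16% of the tested genes of chromosome 3. The neighbours of CBLB had a median of 0.31, and those of ERBB2, ERBB3, LRIG3 and CBL had medians between 0.01 and 0.11.

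**Figure D3:**
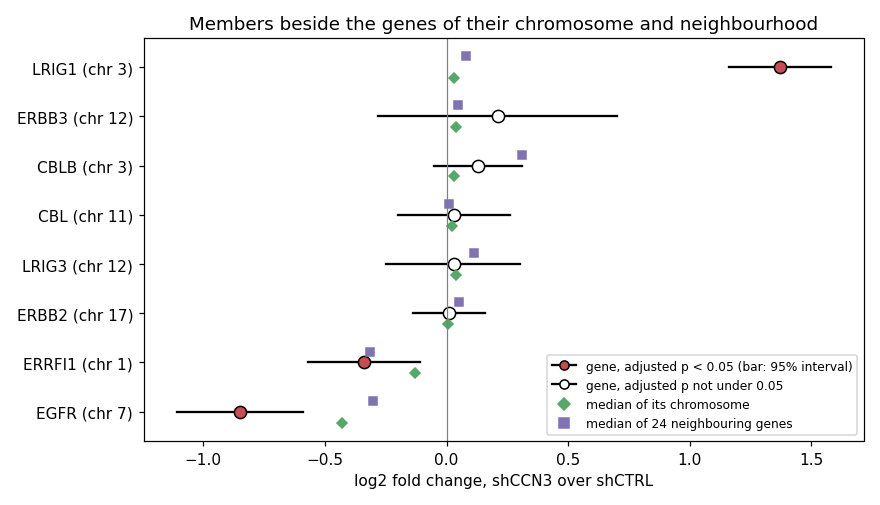
Log2 fold change (shCCN3 over shCTRL, horizontal axis) of the 8 tested members, with 95% intervals as bars and filled circles for an adjusted p under 0.05, beside the median of the chromosome (diamonds) and of the 24 nearest tested genes (squares). EGFR lies at -0.85 with neighbours at -0.30, ERRFI1 lies at -0.34 with neighbours at -0.31, and LRIG1 lies at 1.37 with neighbours at 0.08.

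Several members share their GENCODE position with other genes, and the counting is not stated to use strand, so their counts cannot be told apart with certainty. By RefSeq positions the distance to the member, negative for an overlap, was -0.13 kb for SLC25A26 and -0.148 kb for MIEN1. It was 0.38 kb for MCAM and 0.037 kb for PGAP3. EGFR-AS1, antisense to EGFR, had 5 counts in shCTRL replicate 3 and 0 in each other library. SLC25A26, which overlaps LRIG1 on the other strand, changed by 0.33 on the log2 scale (edgeR quasi-likelihood test, adjusted p = 0.0207) at 20.1 and 25.3 CPM. MCAM, which overlaps CBL, changed by -0.64 (adjusted p = 0.00142). Of the genes that overlap ERBB2, MIEN1 changed by -0.35 (adjusted p = 0.0162), and PGAP3 had a log2 fold change of 0.26 that did not pass (adjusted p = 0.104).

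The 5 genes whose log2 CPM followed EGFR most closely over the 6 libraries, among 13632 genes of at least 1 CPM, were COL8A1 (Pearson r = 0.9988), MMP16 (0.9984), UBE4B (0.9984), YWHAG (0.9983) and NRP1 (0.9981). These correlations share the group difference and the libraries, 85 genes exceeded 0.99, and they are given as a description. The log2 fold changes of the 5 genes lay between -0.82 and -0.38, and YWHAG lies on chromosome 7 as EGFR does.

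Other genes of the pathway were read from 5 lists. Of the EGF family ligands, 4 of 7 tested were lower and 0 were higher in shCCN3, with a median log2 fold change of -0.28. NRG2, a neuregulin, fell from 22.6 ± 1.07 to 8.97 ± 0.511 CPM (log2 fold change -1.33, edgeR quasi-likelihood test, adjusted p = 3.91e-06). HBEGF, an EGFR ligand, fell by 0.93 and EGF by 1.36 on the log2 scale, EGF from only 1.46 to 0.573 CPM, and NRG1, named after its values were seen, fell by 0.28. AREG, EPGN and BTC did not pass, and TGFA and NRG3 had 0 counts in every library. Of 15 receptor-proximal adaptors, which link receptors to Ras and other effectors, 2 were higher and 0 lower, with a median of -0.01. GAB1, a docking protein, rose from 4.69 ± 0.623 to 7.77 ± 0.761 CPM (log2 fold change 0.73), and NCK2 rose by 0.26.

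Of 18 genes of the Ras-ERK and PI3K core, 3 were higher and 0 lower, with a median of 0.07. Of these, PIK3R2, a regulatory subunit of PI3K, rose by 0.33 on the log2 scale, from 162 ± 4.15 to 204 ± 9.26 CPM (SD, n = 3 each). Of 16 endocytic sorting genes, 2 were higher and 3 lower, with a median of -0.05. CD2AP rose by 0.92 and STAM by 0.32, while EPN2, EPN1 and SH3KBP1 changed by -0.60, -0.27 and -0.25 on the log2 scale. Of 10 other receptor-level regulators tested, 3 were higher and 1 lower, with a median of 0.13. The phosphatases PTPRJ and PTPN2 rose by 0.36 and 0.28, PTPRK, named after its values were seen, rose by 0.36 with overlapping groups, and SOCS5 fell by 0.42. Beside 33.4% of all genes, 57.1% of the tested ligands and 40% of the other receptor-level regulators were called. The share was 31.2% for endocytic sorting, 16.7% for the Ras-ERK and PI3K core and 13.3% for the adaptors.

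**Figure D4:**
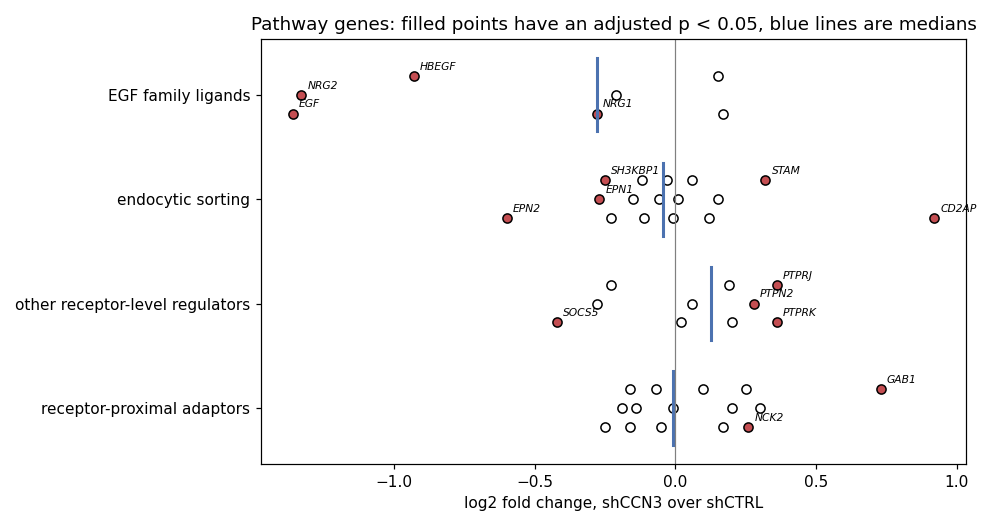
Log2 fold change (shCCN3 over shCTRL, horizontal axis) of the tested genes of 4 of the pathway lists (without the Ras-ERK and PI3K core), 1 row for each list, with filled and named points for an adjusted p under 0.05 and blue lines for list medians. The ligand list has 4 called genes, all lower, and the adaptor list has 2, both higher.

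EGFR and LRIG1 kept their direction and call in all 13 alternatives tried, with log2 fold changes between -0.92 and -0.73 for EGFR and between 1.31 and 1.45 for LRIG1. Without shCCN3 replicate 2 these were -0.73 and 1.45. Of the 5 members that did not pass, ERBB2, LRIG3 and CBL crossed 0 when single libraries were left out.

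**Figure D5:**
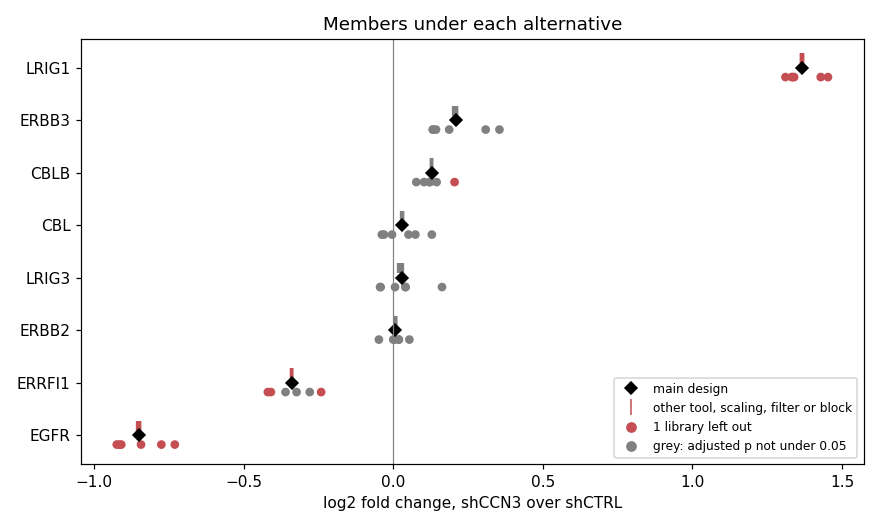
Log2 fold change (shCCN3 over shCTRL, horizontal axis) of the 8 tested members in the main design (black diamonds), under 7 other tools, scalings, filters or a block (ticks) and with 1 library left out (circles), coloured red for an adjusted p under 0.05 and grey otherwise. EGFR stays between -0.92 and -0.73 and LRIG1 between 1.31 and 1.45, always in red, and ERRFI1 has 3 grey circles.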

How the data were processed

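RNA-seq was performed on 3 shCTRL and 3 shCCN3 libraries of Hs578T cells, prepared with a stranded mRNA kit. The authors deposited raw counts per gene for 46427 genes, with no normalization. The submitters' processing notes name Trimmomatic, HISAT2 2.1.0, StringTie 2.1.3d and GRCh38, and not whether counting used strand. Counts were scaled with TMM factors, filtered by group with edgeR's filterByExpr and tested with edgeR 4.0.16 (quasi-likelihood test, R 4.3.3), with Benjamini-Hochberg adjustment over 17419 genes and a threshold of 0.05. Intervals use the t distribution of that fit. The 9 genes, the pathway lists and the rules for genes named were chosen with earlier results of these data known. By the rule, named genes are the members, CCN3, LRIG2, CBLC, overlapping genes, the 5 genes most like EGFR, and per list at most 3 called genes in each direction with at least 1 CPM and no overlap, of which some are not reported here. Marker genes were a separate list. Named outside the rule, with values seen, were the 4 tested genes nearest to EGFR, NRG1, PTPRK and the ligands that did not pass or were not tested. Exon lengths come from GENCODE 29, and chromosome positions of tested genes and promoters from RefSeq. Alternatives were DESeq2 1.42.0 and its size factors, upper-quartile scaling, limma-voom (limma 3.58.1), no filter, at least 10 counts in every library, a replicate block and each library left out. The fits were tested on simulated counts, where they missed part of the changed genes. The criterion for passing that test was relaxed after its first run, in which limma-voom fell short of it, and no fit was changed.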

Additional observations from a re-analysis of the deposited data

How the results depend on the processing

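Counts of calls over the members lay between 2 and 4 in all alternatives, and the ligand count between 3 and 4. The adaptor count of 2 became 4 with DESeq2 and 1 with the replicate block. With each library left out in turn it lay between 1 and 6, while the Ras-ERK and PI3K count lay between 2 and 5, the count of other receptor-level regulators between 2 and 7 and the endocytic count between 3 and 6. The highest of the adaptor, Ras-ERK and PI3K and regulator counts came without shCCN3 replicate 2, where 7229 genes of the whole table were called in place of 5825. Without single libraries, values that did not pass changed sign. ERBB2 ranged from -0.048 (without shCTRL replicate 1) to 0.054. LRIG3 ranged from -0.044 to 0.163, and was -0.042 and -0.044 without shCCN3 replicates 1 and 3. CBL ranged from -0.038 to 0.129, and was -0.031 without shCTRL replicate 3 and -0.004 and -0.038 without shCCN3 replicates 1 and 3. The cause was not tested. Deviations of samples with the same replicate number correlated by 0.183, -0.099 and -0.347, so that the numbers were not taken as pairs. The replicate block gave 4887 calls over all genes and changed no call among the members, with EGFR at -0.86 and LRIG1 at 1.36. At this depth ERBB4, CBLC and TGFA lay near or at 0 counts and were not tested between the groups. An exact permutation p of 0.1 is the lowest that 3 libraries against 3 allow.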
